A study of Mus musculus with 9 samples.

Results

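The RGS genes encode regulators of G protein signalling, and 10 of them (Rgs2, Rgs3, Rgs4, Rgs8, Rgs10, Rgs12, Rgs14, Rgs16, Rgs17 and Rgs19) were followed by their gene symbol in a table of 37411 gene symbols. The cells were GT1-7-OX1 cells, a mouse line derived from hypothalamic tumour cells that make gonadotropin releasing hormone, in which the SV-40 T-antigen is driven by the GnRH promoter and into which human OX1, the type 1 orexin receptor, was stably introduced by lentivirus. All 9 cultures carried this receptor. They were given fresh medium with water as the vehicle for 8 h (3 cultures), with 200 nM of the peptide orexin A (OxA) for 3 h (3 cultures), or with 200 nM OxA for 8 h (3 cultures). RNA depleted of ribosomal RNA was sequenced, so that the question put to each RGS gene was whether its transcript differed after OxA and whether it did so early or late. There was no vehicle culture at 3 h, so in that comparison the time since the medium change differed along with the peptide, and their effects cannot be told apart.

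RGS proteins speed the hydrolysis of GTP by G alpha subunits, which returns the G protein to its resting state and shortens the signal of a receptor. OX1 couples to G proteins of the Gq class, which activate phospholipase C beta, and in many cells also to Gi. The subfamilies are told apart by their structure: the R4 proteins are small and act on Gi and Gq, the R7 proteins act with the beta subunit Gnb5, the R12 proteins include larger scaffolds with a GoLoco motif that binds inactive Gi, and the RZ proteins act on Gz as well as on Gi.

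The libraries held 16217786 to 20445364 counts assigned to genes. Of 7 neuronal markers all were measured in every group, with Gnrh1 at 3924 ± 304 TPM in vehicle-treated cells (SD, n = 3; TPM is a share of all transcripts after division by gene length). The summed normalized counts of these 7 (reads brought to 1 library size with TMM factors) ranged from 24870 to 28038 in vehicle, from 26311 to 28301 at 3 h and from 22175 to 22663 at 8 h, and every 8 h culture was below all others. Gnrh1 alone held 16200 ± 1199 of these counts in vehicle, 16810 ± 793.5 at 3 h and 12800 ± 512.5 at 8 h. The sum thus largely follows this gene, and the sum without it is not given here. Map2 fell to 0.825-fold at 3 h (adjusted p = 0.000379 by edgeR) and to 0.739-fold at 8 h (adjusted p = 6.59e-06), Gnrh1 fell to 0.787-fold at 8 h (adjusted p = 1.73e-05), and the other 5 were called at neither time. Of 13 markers of other cell types, Aqp4 was at 0 in all libraries and Ptprc in all but 1. Others were expressed, with Col1a2 at 27.25, Col1a1 at 7.52, Cd68 at 1.916 and S100b at 1.738 TPM on average in vehicle. Gfap, Mbp, Mog, Aif1, Pecam1, Cldn5 and Vwf were at most 0.328 TPM. Col1a2 was thus above the neuronal markers Map2 (21 TPM) and Syp (3.256 TPM), and below Gnrh1, Clstn2, Th, Eno2 and Dlg4. The summed normalized counts of these 13 markers ranged from 1412 to 1684 in vehicle, from 1376 to 1487 at 3 h and from 1416 to 1657 at 8 h, and without the collagens Col1a1 and Col1a2 they were 53.0 to 71.0, 52.9 to 70.4 and 67.0 to 80.3. At 3 h, S100b and Col1a2 were lower and Cd68 was higher among the 4 that passed the filter on low counts. At 8 h none of 5 was called. Of all genes tested, 38.9% were called at 3 h and 28.4% at 8 h. The part of the shifts in either marker list in the RGS results was not tested. In bulk cultures, fewer cells with a transcript and less transcript per cell cannot be told apart.

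Of the 10 genes, 4 of the R12 and RZ subfamilies had the highest levels. Rgs10, a small R12 protein, had the highest level at 88.7 ± 6.22 TPM in vehicle, followed by Rgs12 at 49.7 ± 1.77, Rgs17 at 36.6 ± 2.38 and Rgs19 at 33.0 ± 0.625 TPM (SD, n = 3), and the ranges of these neighbours did not overlap. Rgs3, an R4 protein, followed at 6.96 ± 0.782 TPM. Rgs4 at 0.581 ± 0.104 TPM and Rgs8 at 0.486 ± 0.135 TPM overlapped. Rgs14 and Rgs2 lay under 0.1 TPM on average and Rgs16 had no reads in vehicle, so these last could not be compared at this depth. The order shifted with OxA. At 3 h Rgs19 (24.7 ± 1.37 TPM) and Rgs17 (23.6 ± 3.14 TPM) overlapped, and at 8 h Rgs19 (31.0 ± 0.237 TPM) stood above Rgs17 (25.7 ± 2.67 TPM) with no overlap, while Rgs8 (1.90 ± 0.192 TPM) stood above Rgs4 (0.570 ± 0.198 TPM). The summed level of the 10 genes was 216 ± 8.74 TPM in vehicle, 178 ± 3.74 TPM at 3 h and 190 ± 6.35 TPM at 8 h. Rgs10 made up 39.5% to 41.9% of that sum in the vehicle cultures, 49.3% to 54.7% at 3 h and 42.2% to 47.1% at 8 h. Its share was thus higher in each OxA culture, at 3 h and at 8 h, than in any vehicle culture.

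**Figure D1:**
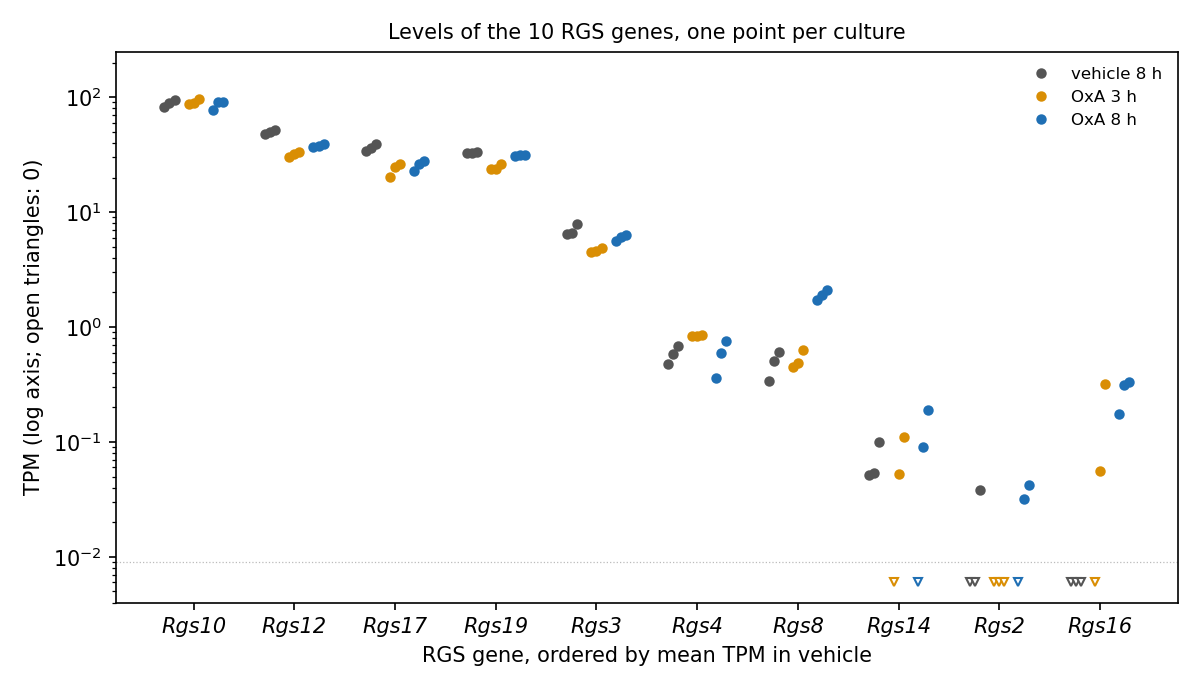
TPM of each of the 10 RGS genes (log axis) in 9 cultures, grouped by gene and coloured by treatment, with open triangles below the dotted line for values of 0. Rgs10, Rgs12, Rgs17 and Rgs19 lie between 20.1 and 97.1 TPM in all cultures, and each 8 h point of Rgs8 lies above its vehicle and 3 h points.

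Rgs8 had the largest rise among the members tested. It encodes an R4 protein of neurons, known for its abundance in cerebellar Purkinje cells and for speeding the gating of G protein-activated potassium channels. Its normalized counts were 43.8, 23.7 and 36.3 in the vehicle cultures, 48.1, 33.7 and 35.6 at 3 h, and 156, 124 and 141 at 8 h. Each 8 h culture was above each other culture, and the vehicle and 3 h cultures overlapped. The rise at 8 h was 4.03-fold (log2 fold change 2.01, SE 0.185, adjusted p = 1.49e-08), from 0.486 ± 0.135 to 1.90 ± 0.192 TPM. It was thus between low levels, and it ranked 147 by p-value among the genes tested. At 3 h the log2 difference of Rgs8 from vehicle was 0.17 (SE 0.248, adjusted p = 0.627), with an interval from -0.31 to 0.66. Rgs8 was the single member past a 2-fold change with an adjusted p under 0.05 at 8 h, where 1.87% of the genes tested met both. At 3 h no member did, where 4.21% of genes did. At 8 h against 3 h Rgs8 did so again (3.59-fold, adjusted p = 7.54e-08), where 1.87% of genes did.

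Rgs8 and Rgs16 are neighbours on chromosome 1 of GRCm38, on the same strand, with Rgs8 at chr1:153653025-153700323 and Rgs16 at chr1:153740349-153745468, 40025 bases apart with 2 annotated genes between them (GENCODE M21). An antisense gene is annotated opposite each of Rgs3, Rgs8, Rgs12 and Rgs16, and also opposite Rgs6, which is described further on, and since the strand setting of the counting is not stated, reads from it cannot be told apart from those of the RGS gene. On the same strand, Gm15503 overlaps Rgs10 by 3374 bases and Mir3097 overlaps Rgs12 by 67. Likewise 1700030I03Rik overlaps Rgs6 by 942 bases and 5730408A14Rik overlaps Rgs7 by 1824. The part of these genes in the counts was not tested. The promoters of Rgs8 and Rgs16 are shown because both genes were highest at 8 h: each sequence runs from 250 bases before to 50 bases after a RefSeq start (GRCm38.p6, plus strand), and capitals mark matches to the motifs searched. RefSeq gives Rgs8 3 starts, of which the first is printed, since counts per gene do not tell which is used.
Rgs8, chr1:153652787-153653086: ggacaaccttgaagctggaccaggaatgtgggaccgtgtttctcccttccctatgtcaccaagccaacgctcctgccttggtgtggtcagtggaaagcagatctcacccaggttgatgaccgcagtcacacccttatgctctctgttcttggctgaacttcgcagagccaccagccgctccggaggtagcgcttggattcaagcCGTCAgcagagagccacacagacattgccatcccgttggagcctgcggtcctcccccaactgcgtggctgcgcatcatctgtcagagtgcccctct
Rgs16, chr1:153740103-153740402: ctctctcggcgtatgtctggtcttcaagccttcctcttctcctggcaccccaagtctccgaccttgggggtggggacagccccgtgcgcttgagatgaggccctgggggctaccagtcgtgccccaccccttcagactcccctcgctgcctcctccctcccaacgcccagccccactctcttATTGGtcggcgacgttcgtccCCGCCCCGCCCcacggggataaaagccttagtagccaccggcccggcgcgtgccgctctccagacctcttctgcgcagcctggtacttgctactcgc
The capitals in Rgs8 are TGACG, part of the site bound by CREB, on the minus strand 46 bases before the start, and this motif occurs in 20.8% of all 32851 promoters of this length. Rgs16 holds CCAAT 68 bases before its start (37.4% of promoters) and a pair of overlapping GC boxes, GGGCGG (35.7% of promoters). Its window holds neither TGACG nor the AP-1 motif TGANTCA. The windows of the other 2 Rgs8 starts each hold CCAAT and no TGACG.

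Rgs16, an R4 protein that acts on Gi and Gq, had no reads in any vehicle culture. Its raw counts were 0, 0 and 0 in vehicle, 0, 1 and 6 at 3 h and 7, 7 and 3 at 8 h, so that every 8 h culture had reads and no vehicle culture did. With a floor of 3 counts over the vehicle group, which is the upper limit that a count of 0 allows, the 8 h level was at least 5.55-fold higher, a bound that takes the 17 reads as counted. The counting interval of the ratio, which also covers the error of the 17 reads, began at 4.04. An exact two-sided permutation test gave p = 0.1, the smallest that 3 against 3 cultures can give. Against the same floor the 3 h total of 7 reads was at least 2.57-fold higher, and the counting interval began at 1.59. The exact two-sided permutation test gave p = 0.4, and 6 of these reads came from replicate 3 and without it 1 read was left. Rgs16 did not pass the filter on low counts; fitted without the filter, edgeR gave adjusted p = 0.0468 at 3 h and 0.000865 at 8 h, values that rest on 7 and 17 reads. Between 3 and 8 h the ratio was 2.16 with a counting interval of 0.85 to 6.15.

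Rgs3, an R4 protein that acts on Gi and Gq, fell at 3 h and was higher again at 8 h. The vehicle cultures held 413, 394 and 490 normalized counts, the 3 h cultures 300, 320 and 292, and the 8 h cultures 363, 386 and 406. No 3 h culture reached a vehicle or an 8 h culture, and the 8 h and vehicle cultures overlapped. The fall at 3 h was to 0.705-fold (log2 fold change -0.51, SE 0.0901, adjusted p = 8.89e-05). At 8 h the log2 difference from vehicle was -0.18 (SE 0.0861, adjusted p = 0.136), and the rise from 3 to 8 h was 1.26-fold (adjusted p = 0.00425).

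The other R4 members were near the limit of detection. Rgs4, which in cells is removed through the arginine branch of the N-end rule, had 16.2, 10.8 and 13.7 normalized counts in vehicle, 21.2, 20.6 and 20.4 at 3 h and 8.81, 17.9 and 14.5 at 8 h. The 3 h cultures lay above all others, but the log2 difference of 0.61 (SE 0.315) was not called (adjusted p = 0.134), and its interval ran from -0.01 to 1.23. At 8 h its log2 difference was 0.001 (interval -0.70 to 0.70). Rgs2, an R4 protein with a preference for Gq, had 3 reads in all 9 cultures together, 1 in vehicle, 0 at 3 h and 2 at 8 h, so no difference was detectable at this depth.

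Of the R12 members, Rgs12 fell at both times and Rgs10 was called at neither. Rgs12, a large scaffold with a GoLoco motif and Ras-binding domains, had 2620, 2642 and 2522 normalized counts in vehicle, 1691, 1762 and 1814 at 3 h and 2174, 2028 and 2011 at 8 h. The groups did not overlap, with vehicle highest, 8 h between and 3 h lowest. It fell to 0.679-fold at 3 h (log2 fold change -0.56, SE 0.047, adjusted p = 1.45e-09) and remained at 0.796-fold at 8 h (log2 fold change -0.33, SE 0.047, adjusted p = 8.51e-06). The rise from 3 to 8 h was 1.18-fold (SE 0.0508 on the log2 scale, adjusted p = 0.0013). Rgs10, which consists of little more than the RGS domain, had 635, 646 and 575 normalized counts in vehicle, 725, 641 and 647 at 3 h and 666, 551 and 664 at 8 h, with all groups overlapping. Its log2 difference from vehicle was 0.12 at 3 h (interval -0.02 to 0.26, adjusted p = 0.194) and 0.01 at 8 h (interval -0.14 to 0.16, adjusted p = 0.938). Rgs14, an R12 protein that also has a GoLoco motif, had 4, 3 and 6 reads in vehicle, at 3 h and at 8 h, and no difference was detectable at this depth.

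Both RZ members, Rgs17 and Rgs19, fell at 3 h, and Rgs17 was also lower at 8 h. Rgs17 had 2265, 2486 and 2375 normalized counts in vehicle, 1397, 1668 and 1758 at 3 h and 1555, 1856 and 1770 at 8 h. Every OxA culture was below every vehicle culture, and the OxA times overlapped. The level was 0.679-fold at 3 h (log2 fold change -0.56, SE 0.0715, adjusted p = 1.99e-05) and 0.724-fold at 8 h (log2 fold change -0.47, SE 0.0572, adjusted p = 2.05e-06), and between the times the log2 difference was 0.10 (interval -0.07 to 0.27, adjusted p = 0.451). Rgs19, also called GAIP, had 579, 547 and 551 normalized counts in vehicle, 435, 425 and 461 at 3 h and 557, 533 and 548 at 8 h. The 3 h cultures were below all others, and vehicle and 8 h overlapped. It fell to 0.79-fold at 3 h (log2 fold change -0.34, SE 0.0712, adjusted p = 0.000495), its log2 difference at 8 h was -0.04 (interval -0.17 to 0.09, adjusted p = 0.703), and it rose 1.24-fold from 3 to 8 h (adjusted p = 0.00239).

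**Figure D2:**
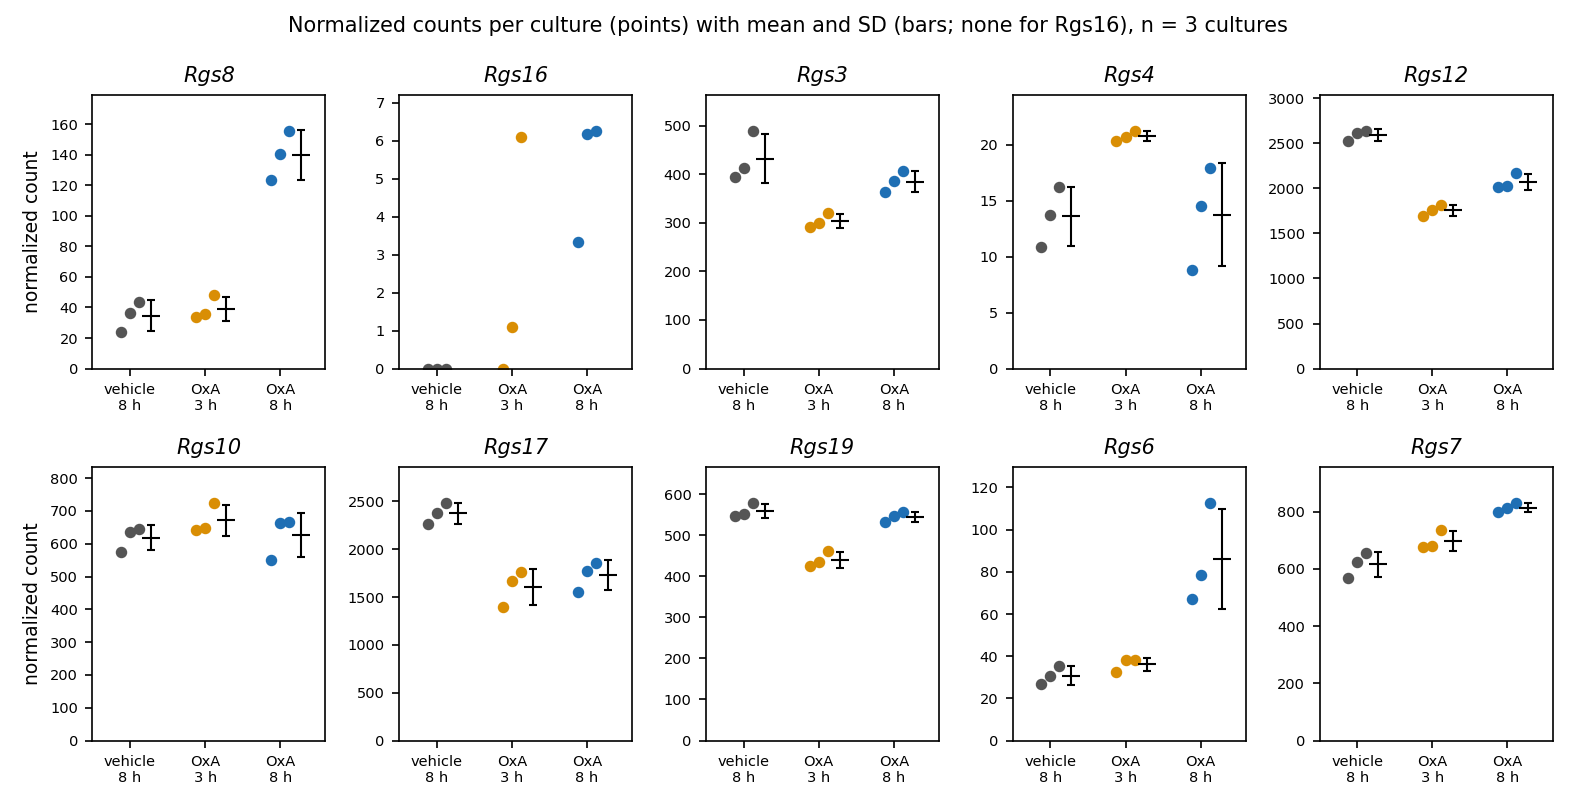
Normalized counts (each panel has its own axis from 0) of 8 RGS members and of Rgs6 and Rgs7 in 3 vehicle, 3 OxA 3 h and 3 OxA 8 h cultures, with mean and SD except for Rgs16. Rgs3, Rgs12 and Rgs19 are lowest at 3 h, and Rgs8, Rgs6 and Rgs7 are highest at 8 h. Rgs17 is below vehicle at both OxA times, which overlap.

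The promoters of Rgs12 and Rgs17 are shown because these were the members lower at both times. RefSeq gives Rgs12 2 starts and Rgs17 1, on GRCm38.p6 (Rgs12 on the plus strand, Rgs17 on the minus strand), and the second start of Rgs12 is printed with the Rgs17 start because both windows hold the AP-1 motif.
Rgs12, chr5:34998828-34999127: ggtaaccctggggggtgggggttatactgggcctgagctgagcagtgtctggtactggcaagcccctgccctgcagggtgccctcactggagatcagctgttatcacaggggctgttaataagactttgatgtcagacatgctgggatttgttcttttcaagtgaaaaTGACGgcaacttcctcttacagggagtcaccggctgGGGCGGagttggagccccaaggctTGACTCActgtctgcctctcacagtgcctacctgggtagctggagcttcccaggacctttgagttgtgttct
Rgs17, chr10:5922351-5922650: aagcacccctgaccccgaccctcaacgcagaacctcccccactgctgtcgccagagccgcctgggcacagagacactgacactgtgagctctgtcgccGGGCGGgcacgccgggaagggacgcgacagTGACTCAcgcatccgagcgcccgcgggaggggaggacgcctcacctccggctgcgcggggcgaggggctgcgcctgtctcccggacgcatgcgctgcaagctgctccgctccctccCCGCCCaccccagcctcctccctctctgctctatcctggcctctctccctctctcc
In both, TGANTCA is present as TGACTCA, 22 bases before the start in Rgs12 and 122 bases before it in Rgs17, and 7.81% of all promoters of this length hold TGANTCA on either strand. Both also hold GC boxes, GGGCGG, on either strand. The first Rgs12 start has 4 GC boxes and no TGANTCA, and counts per gene do not tell which start is used. The second was chosen for its motif, so the match in both windows follows from that choice and adds no support. Of the 10 members, 9 had a promoter in the table, with 15 starts in all. The other motifs searched on both strands were TGACGTCA (1.79% of promoters), CACGTG (7.15%), TATAAA (13.6%) and the EGR motif GCGTGGGCG (0.612%). TGACG, which lies inside TGACGTCA, was also present at Rgs2 and Rgs4 and at the second Rgs12 start. CACGTG was present at Rgs19, TATAAA at Rgs3 and Rgs4, and TGACGTCA and GCGTGGGCG were at no member. A match is a description of the letters alone.

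Across the comparisons, 7 of the 10 members passed the filter on low counts. At 3 h against vehicle 4 of these 7 were lower, 0 higher and 3 not called, where 20.2% of the 15352 genes tested were higher, 18.7% were lower and 38.9% were called in either direction. The median log2 difference of the 7 was -0.34, against -0.004 for all genes tested. At 8 h 1 was higher, 2 were lower and 4 were not called, where 28.4% of 15407 genes were called, 15.3% higher and 13.1% lower, and the median was -0.04 against -0.01. At 8 h against 3 h 4 were higher and 0 lower, where 28.0% of 15278 genes were called, 13.7% higher and 14.3% lower, and the median was 0.24 against 0.01. These 3 comparisons share groups: the 3 h comparison and the 8 h comparison use the same vehicle cultures, and each OxA group enters 2 of them.

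**Figure D3:**
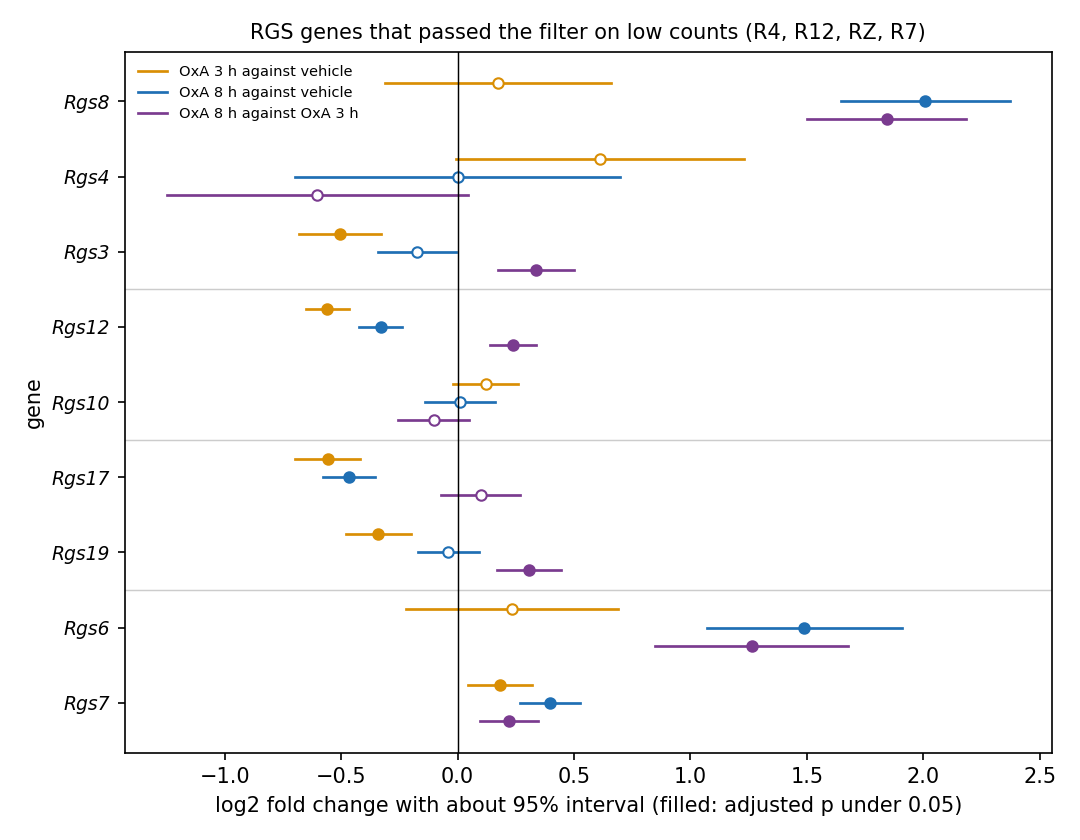
log2 fold changes with about 95% intervals for the 7 members and 2 other RGS genes that passed the filter, in 3 comparisons, ordered by subfamily. Filled points had an adjusted p under 0.05; Rgs3, Rgs12, Rgs17 and Rgs19 lie left of 0 at 3 h, and Rgs8 and Rgs6 lie farthest right at 8 h.

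Of the 11 other RGS genes, 2 passed the filter, and both belong to the R7 subfamily, whose members are known from neurons. Rgs6 had 30.5, 26.6 and 35.3 normalized counts in vehicle, 38.0, 38.0 and 32.6 at 3 h and 78.4, 113 and 66.9 at 8 h. Like Rgs8, it was highest in all 3 of the 8 h cultures, and reads of its antisense genes cannot be told apart from its own. The rise at 8 h was 2.81-fold (log2 fold change 1.49, SE 0.213, adjusted p = 9.68e-06). It was between low levels, from 0.531 ± 0.0706 TPM in vehicle to 1.435 ± 0.417 TPM at 8 h. At 3 h its log2 difference was 0.23 (adjusted p = 0.463). Rgs7, at 31.0 ± 2.75 TPM in vehicle the most abundant RGS gene outside the 10, rose at both times, 1.13-fold at 3 h (adjusted p = 0.0442) and 1.32-fold at 8 h (log2 fold change 0.40, SE 0.0651, adjusted p = 5.33e-05). Of the remaining 9, Rgs13, Rgs18 and Rgs21 had no reads in any culture, and Rgs1, Rgs5, Rgs9, Rgs11, Rgs20 and Rgs22 had at most 71 reads over the 9 cultures. Of 3 R7 partners tested, 2 were lower at 3 h, where 18.7% of all genes tested were lower. At 8 h 1 was lower, where 13.1% of genes were, and none was higher at either time. Gnb5, the beta subunit bound by R7 proteins, fell to 0.835-fold at 3 h (adjusted p = 0.0128), and Rgs9bp, which anchors Rgs9 in the retina, fell to 0.412-fold at 3 h (71.2 ± 14.4 to 29.3 ± 3.18 normalized counts, adjusted p = 3.91e-05) and to 0.581-fold at 8 h (adjusted p = 0.00479).

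Among the G alpha subunits on which RGS proteins act, 13 of 16 were tested. At 3 h 2 were higher and 2 lower, where 38.9% of all genes tested were called, and at 8 h 3 were higher and 2 lower, where 28.4% were. Gnaz, which encodes Gz, the subunit for which the RZ subfamily is named, had 827 ± 22.3 normalized counts in vehicle, 560 ± 29.3 at 3 h and 653 ± 46.7 at 8 h (SD, n = 3). It fell to 0.679-fold at 3 h (log2 fold change -0.56, SE 0.0656, adjusted p = 3.04e-07) and to 0.786-fold at 8 h (adjusted p = 0.000223), beside the lower Rgs17 at both times and the lower Rgs19 at 3 h. Gnai1, a Gi subunit, rose 1.49-fold at 8 h (564 ± 50.2 to 843 ± 70.5 normalized counts, adjusted p = 2.5e-06), also against 3 h (adjusted p = 9.72e-06), as Rgs8 and Rgs6 did. Gna13 rose 1.17-fold at 3 h (adjusted p = 0.000357) and 1.11-fold at 8 h (adjusted p = 0.0155 by edgeR). Of the Gq class subunits, Gnaq and Gna11 were added after their values were seen. Gnaq was not called (log2 0.07 at 3 h and 0.13 at 8 h), and Gna11 fell to 0.896-fold at 3 h (adjusted p = 0.0107). Gna14, of the same class, was not called (log2 0.255 at 3 h and 0.256 at 8 h), and Gna15 did not pass the filter.

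The G beta and gamma subunits had 1 higher and 1 lower of 9 tested at each time. Of all genes tested, 38.9% were called at 3 h and 28.4% at 8 h. Gng5 rose 1.23-fold at 3 h (adjusted p = 0.000463) and 1.22-fold at 8 h (adjusted p = 0.000581 by edgeR). Gnb3 fell to 0.383-fold at 3 h from 17.7 ± 8.60 normalized counts (adjusted p = 0.0169), and Gng7 fell to 0.747-fold at 8 h (adjusted p = 0.0142). Of 14 tested proteins with an RGS homology domain, 3 were higher and 5 lower at 3 h, where 20.2% of all genes tested were higher and 18.7% lower. At 8 h 0 were higher and 3 lower, where 15.3% of genes were higher and 13.1% lower. Snx14, a sorting nexin, fell to 0.804-fold at 3 h (adjusted p = 0.00131 by edgeR) and 0.731-fold at 8 h (adjusted p = 9.58e-05). Grk5, a receptor kinase, fell to 0.736-fold at 3 h (adjusted p = 0.00328 by edgeR) and 0.819-fold at 8 h (adjusted p = 0.036). Axin2, a scaffold of the WNT pathway, fell to 0.781-fold at 3 h (adjusted p = 0.038). Of 6 tested GoLoco and Ric8 genes, 1 was higher and 0 lower at 3 h, where 38.9% of all genes tested were called. At 8 h 1 was higher and 2 lower, where 28.4% were called. Among them were Ric8 at 1.20-fold (adjusted p = 0.00218) and Rap1gap at 0.775-fold (adjusted p = 0.00524), both at 8 h, and Gpsm2 at 1.16-fold at 3 h (adjusted p = 0.0424).

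R4 proteins such as Rgs4 and Rgs16 are removed through the N-end rule. Of 6 genes listed for the degradation of RGS proteins, the 3 of this route fell at 3 h, Ubr2 to 0.858-fold, Ate1 to 0.865-fold and Ubr1 to 0.875-fold (adjusted p = 0.00122, 0.00211 and 0.00351). The other 3, Fbxo44, Cul4b and Ddb1, belong to cullin ubiquitin ligases and were not called at 3 h, and none of the 6 was called at 8 h. Among all genes tested, 18.7% were lower at 3 h and 38.9% were called in either direction, and 28.4% were called at 8 h. Of the 4 phospholipase C beta genes, the effectors of Gq, Plcb1 fell to 0.657-fold at 3 h (737 ± 85.8 to 483 ± 36.4 normalized counts, adjusted p = 3.79e-06) and 0.621-fold at 8 h (adjusted p = 9.17e-07). Plcb4 rose 1.14-fold at 3 h (adjusted p = 0.0307) and was at 0.853-fold at 8 h (adjusted p = 0.0136). Plcb3 fell to 0.903-fold at 8 h (adjusted p = 0.0222).

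**Figure D4:**
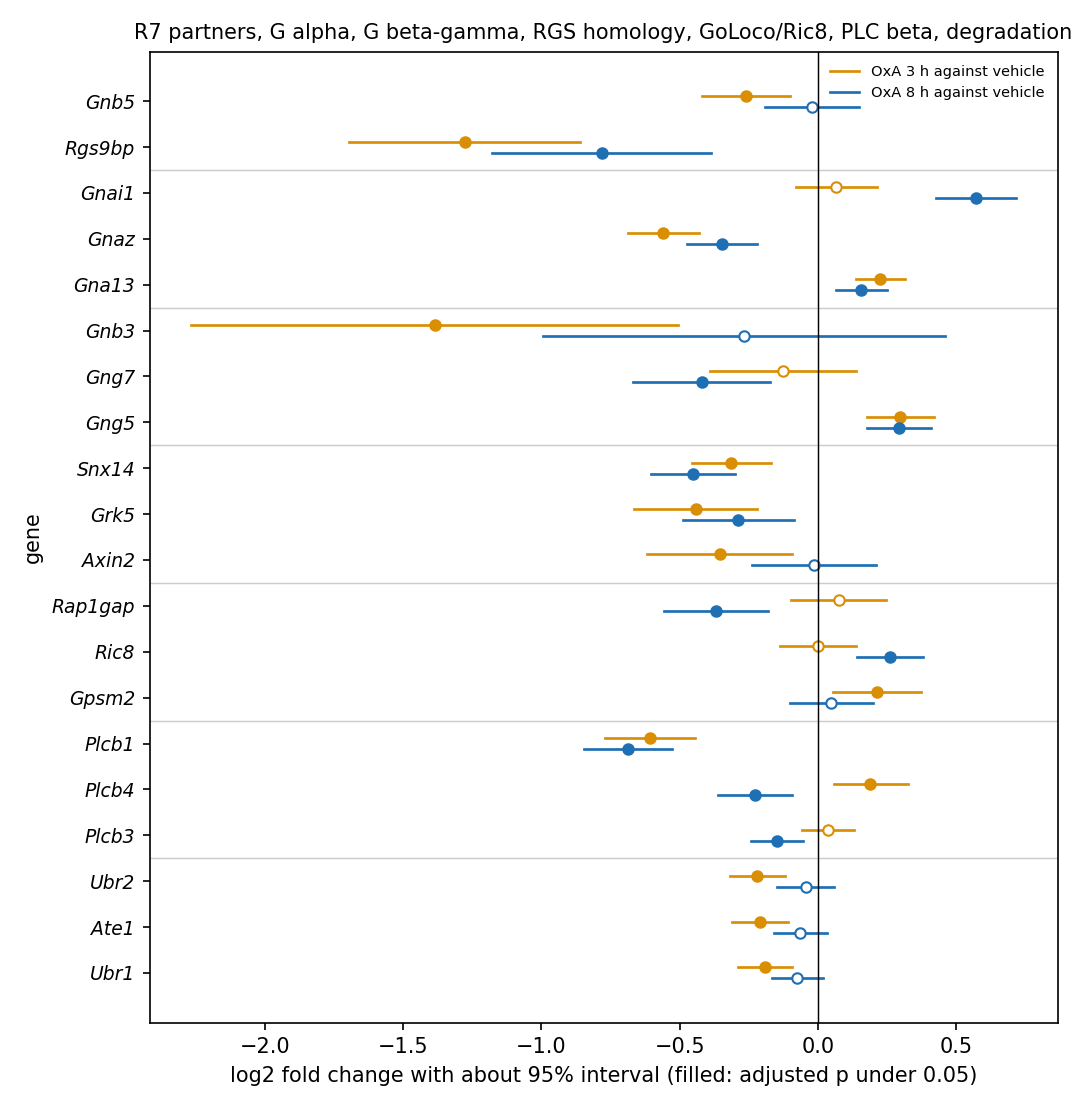
log2 fold changes against vehicle with about 95% intervals at 3 h and 8 h for the genes named from 7 lists around the RGS proteins, separated by grey lines, with filled points for an adjusted p under 0.05. Rgs9bp, Gnb3 and Plcb1 lie farthest left at 3 h and Gnai1 farthest right at 8 h.

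The genes whose log2 CPM (depth-scaled counts) followed those of a member most closely were taken for the 3 members with the largest called changes, from 11776 genes over the 9 cultures, and the coefficients describe points that share 3 treatment groups. For Rgs8 they were Spp1 (r = 0.994), Rpl30 (r = 0.992) and Traf4 (r = 0.988). From vehicle to 8 h, Spp1 went from 207.5 ± 60.1 to 1275 ± 273.5 normalized counts (SD, n = 3). Rpl30 went from 1883 ± 55.6 to 2204 ± 42.7 and Traf4 from 520.9 ± 40.8 to 745.4 ± 52.0. A high coefficient thus describes the shape of the course and not the size of the change. For Rgs12 they were Cep131 (r = 0.988), Heatr5b (r = 0.987) and Gtf3c1 (r = 0.987). For Rgs17 they were Smarca2 (r = 0.987), Dhrs3 (r = 0.986) and Tmx4 (r = 0.98).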

How the data were processed

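Stranded libraries were trimmed with Trimmomatic and aligned by the authors with STAR 2.5.2a (mm10), and HTSeq 0.6.0 produced the deposited raw counts, which entered the tests. TPM as deposited by the authors, for which gene lengths are not given, served for levels between genes. Deposited normalized counts and the authors' DESeq2 comparison tables (fold changes and p-values) were not used. With edgeR 4.0.16 in R 4.3.3, each pair of groups was filtered (filterByExpr), scaled by TMM and fitted by robust quasi-likelihood (glmQLFTest), with Benjamini-Hochberg adjustment over all genes kept and calls at an adjusted p under 0.05. The SE is the coefficient over the square root of F, and an interval is about 95%. Normalized counts refer to a library of 17830000. No library pair within a group agreed within sampling noise. The methods describe treatment and extraction as repeated for each replicate, without saying whether passages differed, so p-values measure the spread between these cultures. Intervals from counts cover counting error only. The fits were tested on simulated data.

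The members and the gene lists were chosen with earlier results of these data known. Named genes were all 10 members, other RGS genes past the filter, up to 3 called genes of each list with the largest changes against vehicle, and the genes most like 3 members. Grk2, Grk3 and Ric8a were sought under those symbols first; these 3 symbols are absent, and Adrbk1, Adrbk2 and Ric8 were used. Positions are from GENCODE M21 and promoters from RefSeq (GRCm38.p6); protein sequences were not used here. Of the list of markers of other cell types, 13 genes are reported and 1 further gene is not reported here. Alternatives were RLE and upper-quartile scaling, no filter, DESeq2 1.42.0 with and without a prior, 1 fit of all groups, a replicate block, and leaving out each replicate.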

Additional observations from a re-analysis of the deposited data

Results flagged for a closer look

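The 8 h and 3 h OxA cultures differed in 4 of the 7 members tested, all higher at 8 h. Of the 15278 genes tested, 13.7% were higher and 14.3% lower. The time of these cultures in fresh medium differed along with their time in OxA, and without a 3 h vehicle the contributions cannot be told apart. The log2 level at 8 h minus that at 3 h was 1.842 for Rgs8 (SE 0.174, adjusted p = 7.54e-08 by edgeR). It was 0.336 for Rgs3 (SE 0.0834, adjusted p = 0.00425) and 0.307 for Rgs19 (SE 0.0707, adjusted p = 0.00239), which had fallen at 3 h. It was 0.237 for Rgs12 (SE 0.0508, adjusted p = 0.0013), which was below vehicle at both times. In each of these 4 genes every 8 h culture was above every 3 h culture. They were picked by a test on the same values, so this adds no support. The share of all genes without overlap is not given here. For Rgs17 the same difference was 0.10 (adjusted p = 0.451), which does not show that its levels at the times were alike.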

How the results depend on the processing

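The counts of members called were 4, 3 and 4 under each alternative, except that without the filter on low counts they were 5 at 3 h and 4 at 8 h, with Rgs16 added. With the replicate block they were again 4, 3 and 4, and no member's call changed under the pairing. The block raised the number of all genes called from 5973 to 6500 at 3 h and from 4377 to 5558 at 8 h. Between the times it raised it from 4277 to 5348. Same-numbered cultures correlated by 0.00762 to 0.162 in their deviations, and differently numbered ones by -0.117 to 0.0698. The main fits left the numbers out because same-numbered pairs were not all over 0.1. Whether a number stands for a shared run is not stated, so a pairing remains possible. All 11 values that changed sign belonged to members not called. With upper-quartile scaling Rgs4 at 8 h was -0.029 and Rgs10 at 8 h -0.02, and with the replicate block Rgs4 at 8 h was -0.004. When a replicate was left out, Rgs8 at 3 h ranged from -0.037 to 0.379, Rgs4 at 8 h from -0.26 to 0.257 and Rgs10 at 8 h from -0.041 to 0.102 on the log2 scale. Rgs8 at 8 h ranged from 1.804 to 2.223 in those fits, and with the DESeq2 prior it was 1.448. Upper-quartile scaling changed the split of all genes called at 3 h from 3104 higher and 2869 lower to 2426 and 3719. Depth limits Rgs2, Rgs14 and Rgs16, with 3, 13 and 24 reads in all.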
